A study of Triticum aestivum with 24 samples.

Results

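In the degradome of wheat (Triticum aestivum cv Chinese Spring) leaves, 9 loci formed a small group around 3 conserved miRNA families: all loci listed under miR159 (a MYB transcription factor and 3 Nudix hydrolase-like loci), the miR156 targets described as low temperature and salt responsive proteins (3 loci), and the miR166 targets whose description begins with Alpha-1 (2 loci). The rule that picks them uses miRNA name and annotation and no measured value. The target table holds 62 loci in all. Of the 9 loci, 8 lie outside the target class for which their miRNA family is known and are called off-class here, and the MYB locus is the known-class member of miR159. Heat-stressed plants at the boot stage were held at 37 °C for 5 days, control plants stayed at their growth conditions, and leaves of both were taken 0, 1 and 4 days after treatment. Each of the 6 groups had 4 libraries, 24 in all, and each library pooled 18 plants, all descended by selfing from a single individual. The table has 1 value per miRNA and cut position for the whole series and 0 columns per library, so no value can be split by treatment or day, none has a replicate error, and the depth per library is unknown.

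Plant miRNAs pair with a transcript along nearly their whole length, and the Argonaute protein that carries them cuts the transcript opposite the middle of the miRNA, canonically at base 10 counted from the 5′ end. Parallel analysis of RNA ends (PARE) captures polyadenylated fragments that have lost their cap and reads them from the 5′ end, so a cut appears as a pile of tags starting at a single position. In other plants miR159 is known for GAMYB-like MYB transcripts, whose proteins act in gibberellin signalling in the aleurone and in anthers. The families miR156 and miR166 are known for the squamosa promoter-binding-like transcription factors of phase change and for the homeobox leucine-zipper transcription factors of leaf polarity. Nudix hydrolases act on compounds in which a nucleoside diphosphate is linked to another moiety. Low temperature and salt responsive protein is a name given to small membrane proteins whose transcripts accumulate in cold and salt. The annotation Alpha-1 is cut short in the table, so the protein behind it is not named here.

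The 3 miRNAs carry all pairs of these loci, and each is printed 5′ to 3′ as DNA letters with its seed (bases 2 to 8) in capitals, because the position of each mismatch below is counted along it.
miR159f-1: cTTGGATTgaagggagctct
miR156-19-5p: tGACAGAAgagagtgagca
miR166-8.5-3p: cTCGGACCaggcttcaatccc

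The sites are printed 5′ to 3′ as the table gives them, with each base that forms no Watson-Crick pair with the miRNA in capitals. Off-class sites stand above the known-class site of the same miRNA, so that the spread of capitals can be compared. The 3′ end of a site lies opposite base 1 of its miRNA.
Nudix hydrolase-like, 3A, 3B and 3D, miR159f-1: agagctcTAttcaatccTGT
MYB, 3A, miR159f-1: GgagctcccttcaCtccaag
Low temperature and salt responsive, 2A, 2B and 2D, miR156-19-5p: tgctcacCTtcttcGgCTa
Squamosa promoter-binding-like, 5 loci, miR156-19-5p: tgctcTctctcttctgtca
Alpha-1, 4A and 4B, miR166-8.5-3p: TggatCgaGgcctggGAcgag
Homeobox leucine-zipper, 5A and 5B, miR166-8.5-3p: gggaAtgaagcctggtccgGA
Homeobox leucine-zipper, 1A and 1B, miR166-8.5-3p: TggGAtgaagcctggtccgGA

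The off-class sites paired less fully with their miRNA than the MYB site did. Averaged over the 3 sets of homoeologous copies, off-class sites had 3.33 ± 0.577 mismatches (SD over 3 sets), against 1 at the MYB site, a difference of 2.33. The target score, miRferno's penalty for imperfect pairing with 0 for a perfect match, averaged 5.5 ± 0.866 at the off-class sites (SD over 3 sets) and was 1.5 at the MYB site. The sets stand for different transcripts, so these SDs describe how sites differ from each other. No test was made, because the MYB site is a single site with no replicate.

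The miR159 pairs hold both kinds of site under the same miRNA. The Nudix hydrolase-like site lies at positions 616 to 635 of the coding sequence (codons 206 to 212) in TraesCS3A01G110300, TraesCS3B01G129400 and TraesCS3D01G112300. It has mismatches opposite bases 1, 3 and 12 of miR159f-1 and wobbles (G paired with U) opposite bases 2 and 13. The MYB site lies at positions 1062 to 1081 (codons 354 to 361) in TraesCS3A01G336500, with a mismatch opposite base 7 and a wobble opposite base 20. The imperfect pairs of the Nudix site thus lie at the 5′ end of the miRNA and just past the cut, while the MYB site has its only mismatch late in the seed. Neither site had an imperfect pair at bases 9 to 11. The longest run of Watson-Crick pairs was 8 bases at the Nudix site and 12 bases at the MYB site.

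At the low temperature and salt responsive site (positions 113 to 131, codons 38 to 44, in TraesCS2A01G152000, TraesCS2B01G177100 and TraesCS2D01G157100), miR156-19-5p has mismatches opposite bases 3, 5 and 12 and wobbles opposite bases 2 and 11. It is the only site of the 4 with an imperfect pair at bases 9 to 11, and it has 3 imperfect pairs in the seed. The squamosa promoter-binding-like sites of the same miRNA have a mismatch opposite base 14 and no other imperfect pair. At the Alpha-1 site (positions 1030 to 1050, codons 344 to 350, in TraesCS4A01G166900 and TraesCS4B01G144900), miR166-8.5-3p has mismatches opposite bases 5, 6, 16 and 21 and a wobble opposite base 13. The homeobox leucine-zipper sites of miR166-8.5-3p have their imperfect pairs at bases 1 and 2 and from base 17 on. Between these ends they keep a run of 14 Watson-Crick pairs, while the longest such run at the Alpha-1 site is 6.

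**Figure D1:**
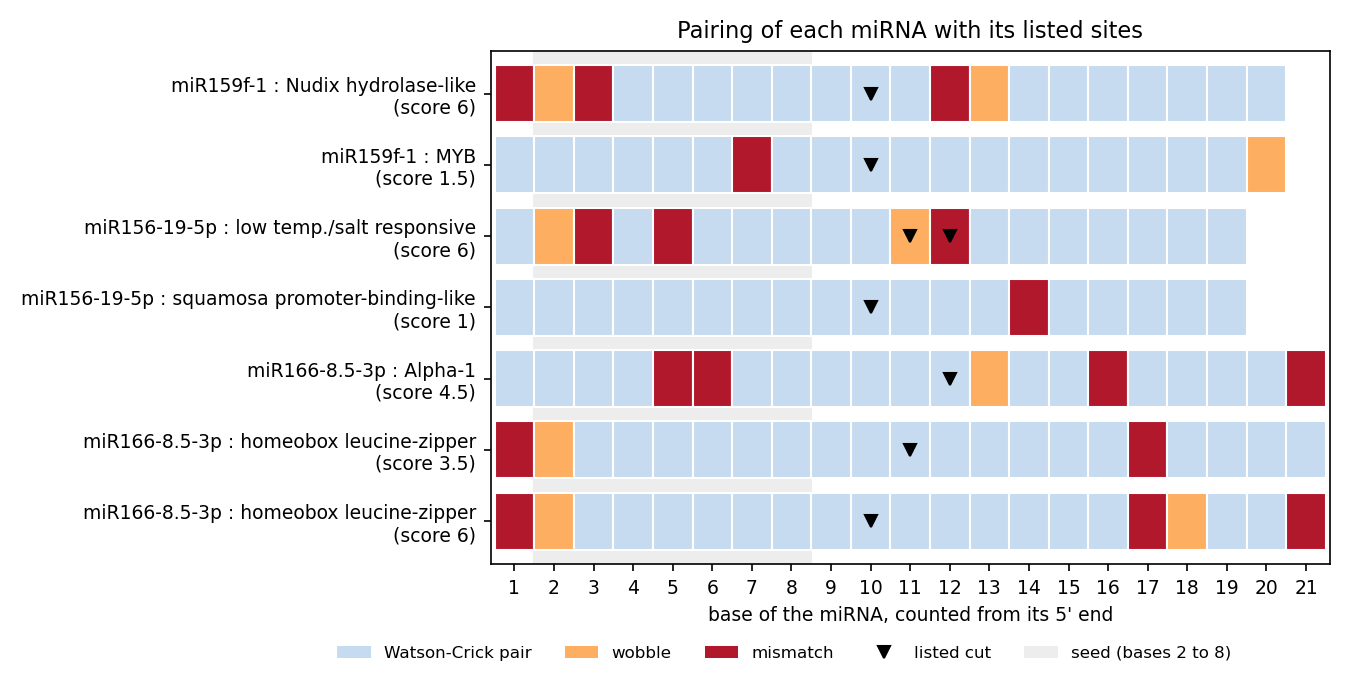
Pairing of each miRNA (x axis, base counted from the 5′ end) with its listed sites (rows, off-class above known class for each miRNA), coloured by Watson-Crick pair, wobble and mismatch, with triangles at the listed cuts and the seed shaded. Off-class rows have 3 or 4 mismatches and the MYB row has 1, and the low temperature and salt responsive row is the only one whose cuts sit on imperfect pairs.

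The predicted duplexes of all 3 off-class sets were weaker than the MYB duplex relative to a perfect one, but among the off-class sets the order was not that of the mismatches: Alpha-1 had the most mismatches and the strongest off-class duplex. The RNAduplex energy of each pair was set against that of the miRNA with its perfect complement. It reached 66.3% at the Nudix site (−24.4 of −36.8 kcal/mol), 53.0% at the low temperature and salt responsive site (−18.3 of −34.5 kcal/mol), 71.7% at the Alpha-1 site (−31.1 of −43.4 kcal/mol) and 89.4% at the MYB site (−32.9 of −36.8 kcal/mol). The off-class mean was 63.7 ± 9.58% (SD over 3 sets), a difference of −25.7 percentage points from the MYB value, and the weakest of the 4 relative to its own miRNA was the low temperature and salt responsive duplex.

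Tags at the cut were few at every one of these loci. The Nudix cut at position 626 had 4 tags (exact Poisson 95% interval 1.09 to 10.2), in each of the 3 copies. The low temperature and salt responsive locus had a pair of neighbouring cuts in each copy, with 5 tags at position 120 (1.62 to 11.7) and 4 tags at position 121 (1.09 to 10.2). The Alpha-1 cut at position 1039 had 5 tags (1.62 to 11.7) in both copies, and the MYB cut at position 1072 had 7 tags (2.81 to 14.4). The MYB count was the highest of the 5, and its interval overlapped all the others.

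Off-class cuts had 0.667 times the tags of the MYB cut on average over the 3 sets (exact conditional 95% interval 0.252 to 1.95, with each set's larger cut taken). The ratio to the MYB cut was 0.571 for Nudix (0.123 to 2.25) and 0.714 for both low temperature and salt responsive and Alpha-1 (0.179 to 2.61). All of these intervals include 1, so a difference in tags was not detectable with counts this low. They cover counting error only. No site in the table has fewer than 4 tags, so the Nudix count lies at this floor, which the intervals do not allow for. When whole windows were counted in place of cuts, the ratio turned to 1.24 (0.523 to 3.38), because the low temperature and salt responsive and Alpha-1 windows hold other tags.

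The share of window tags that fell on the cut was below 100% at the miR156 and miR166 off-class sites and 100% at both kinds of miR159 site. At the low temperature and salt responsive locus 5 of 12 tags lay on position 120 (41.7%, Wilson 95% interval 19.3 to 68.0%) and 4 of 10 on position 121 (40%, 16.8 to 68.7%). At the Alpha-1 locus 5 of 10 tags lay on the cut (50%, 23.7 to 76.3%). At the Nudix locus all 4 tags lay on it (51.0 to 100%), as did all 7 at the MYB locus (64.6 to 100%). A window with no other tag was thus seen at both the Nudix and the MYB site, which differ in their mismatches, and the interval of the MYB share overlapped that of every off-class share. The windows of positions 120 and 121 overlap, so their tags are not separate counts. The off-class mean over the 3 sets was 63.9 ± 31.5% (SD), against 100% at the MYB site.

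**Figure D2:**
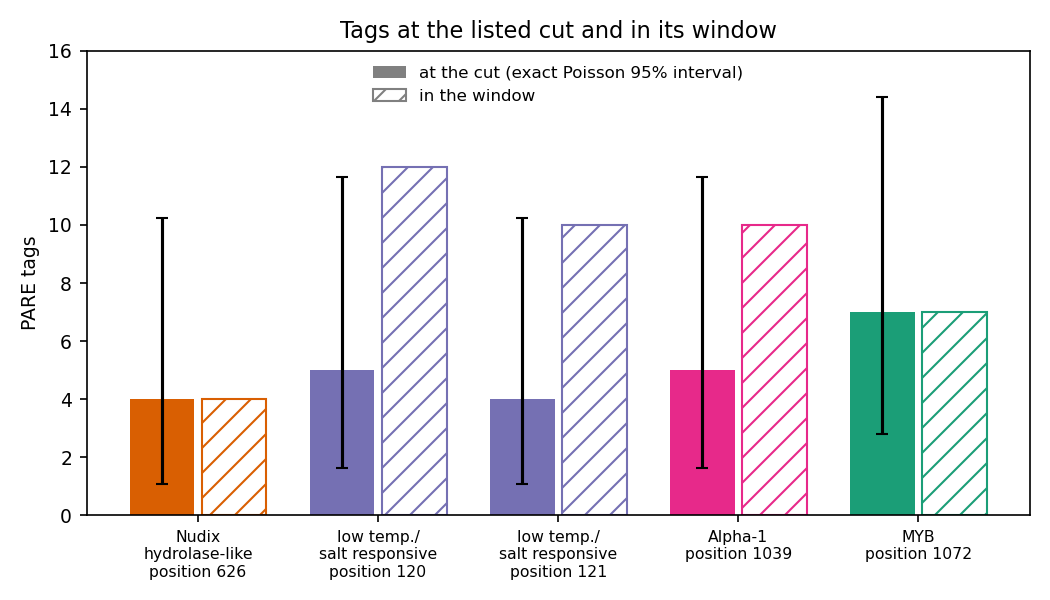
PARE tags (y axis) at each listed cut (solid bars, with exact Poisson 95% intervals) and in the window around it (hatched bars) for the off-class sites and, at the right, the MYB site, with coding sequence positions under each pair of bars. Nudix and MYB have equal solid and hatched bars (4 and 7 tags), while the low temperature and salt responsive and Alpha-1 windows hold 5 to 7 further tags.

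The base opposite the cut followed the same division. The Nudix and MYB cuts both lie opposite base 10 of miR159f-1. The low temperature and salt responsive cuts lie opposite bases 12 and 11 of miR156-19-5p, which are the mismatch and the wobble of that site. The Alpha-1 cut lies opposite base 12 of miR166-8.5-3p, a Watson-Crick pair. Over all 12 member sites, 4 were cut opposite base 10 (33.3%). In the whole table, members included, 46 of 92 sites (50%) were, counting a site when any of its pairs gave base 10. Counted per pair, the cut lay opposite base 10 in 4 of 12 member pairs and 101 of 239 pairs (42.3%).

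Set against the whole table of 239 pairs on 92 sites, the off-class sites stood towards the poorly pairing end and were ordinary in tags. A score of 4.5 or more was carried by 11 of the 12 member sites, all but the MYB site, and by 28.3% of all sites (26 of 92). This cutoff equals the lowest off-class score, that of Alpha-1. The member count therefore follows from the cutoff, and only the share over all sites carries information. Duplex energy was under 70% of the perfect duplex in 9 of 12 member pairs and in 25.5% of all pairs (61 of 239). By score, 2 pairs in the table were worse than the Nudix and the low temperature and salt responsive pairs, 48 were worse than Alpha-1 and 180 were worse than MYB. Over all pairs the median score was 3. The median duplex energy was 81.7%, a value that 11 of the 12 member pairs fell under. Shares and ranks hold for the table used here, which has fewer loci than the study lists.

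More than 4 tags were found at 6 of the 12 member sites, against 65.2% of all sites (60 of 92), whose median was 5 tags and whose range was 4 to 27. All window tags lay on the cut at 4 of 12 member sites, and at 25% of all sites (23 of 92). All 12 member sites were in category 0, the class that sPARTA gives to the most prominent cuts, as were 87% of all sites (80 of 92). This share is near that of the table. Positions 120 and 121 of the same low temperature and salt responsive transcript were both in category 0, with 5 and 4 tags. Category 0 thus does not mark a single highest cut by the listed counts. The lowest category over the pairs of a site was taken. Among known-class loci under the same miRNAs, TraesCS3B01G468400, TraesCS1A01G157500 and TraesCS1B01G173900 were in category 0. The other squamosa promoter-binding-like and homeobox leucine-zipper loci were in category 1 or 3 under these miRNAs. Copies of a set share their sequence and values, so the 12 sites hold only 5 distinct cuts, and counts over 12 weigh the sets with 3 copies most. The deposited p-value of the site was 0.0218 for Nudix, 0.00752 and 0.0136 for the low temperature and salt responsive cuts, 0.0208 for Alpha-1 and 0.000493 for MYB. Of the 239 pairs, 53 had a lower value than MYB. Lower values than Nudix were held by 228 pairs, than Alpha-1 by 225, and than the low temperature and salt responsive cut with 5 tags by 188.

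**Figure D3:**
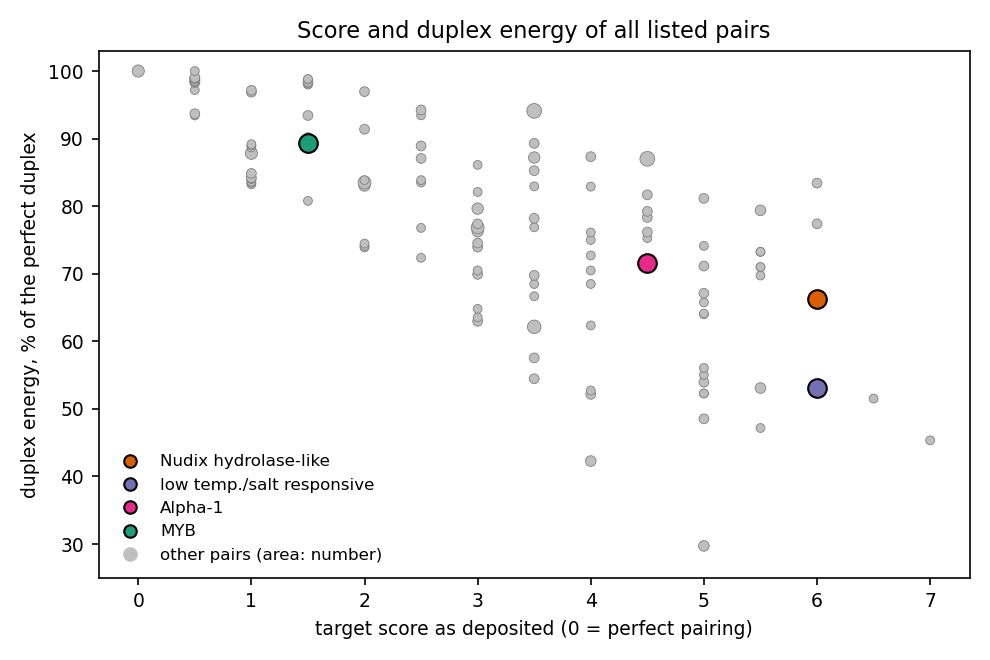
Deposited target score (x axis, 0 is perfect) and duplex energy as a percent of the perfect duplex (y axis) for all 239 pairs, with the off-class pairs and the MYB pair coloured and marker area of the others growing with the number of pairs at that point. The Nudix and the low temperature and salt responsive pairs share a score of 6 but differ in energy (66.3% and 53.0%), and the MYB pair lies at a score of 1.5 and 89.4%.

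Within a single miRNA, the size of the gap between off-class and known-class sites depended on the miRNA. For miR159f-1 the Nudix score was 6 and the MYB score 1.5, a difference of 4.5. For miR156-19-5p the low temperature and salt responsive score was 6, and all 5 squamosa promoter-binding-like loci scored 1, a difference of 5. For miR166-8.5-3p the Alpha-1 score of 4.5 lay within the 3.5 to 6 of the 4 homeobox leucine-zipper loci, whose mean was 4.75, a difference of −0.25. So by score Alpha-1 did not stand apart from the known class of its own miRNA.

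The order at miR166 turned round with a simpler penalty. Counting each mismatch as 1 and each wobble as 0.5 at every position, Alpha-1 reached 4.5, the same as its score, against 2.5 to 4 at the homeobox leucine-zipper sites. The deposited score was 1 to 2 above this penalty at the homeobox leucine-zipper sites and at the Nudix and the low temperature and salt responsive sites, and equal to it at Alpha-1 and MYB. By energy Alpha-1 was also the weaker, with 71.7% against 83.4 to 85.3% at the homeobox leucine-zipper sites. In the whole table, the score equalled the unweighted penalty in 160 of the 239 pairs and exceeded it in 79.

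**Figure D4:**
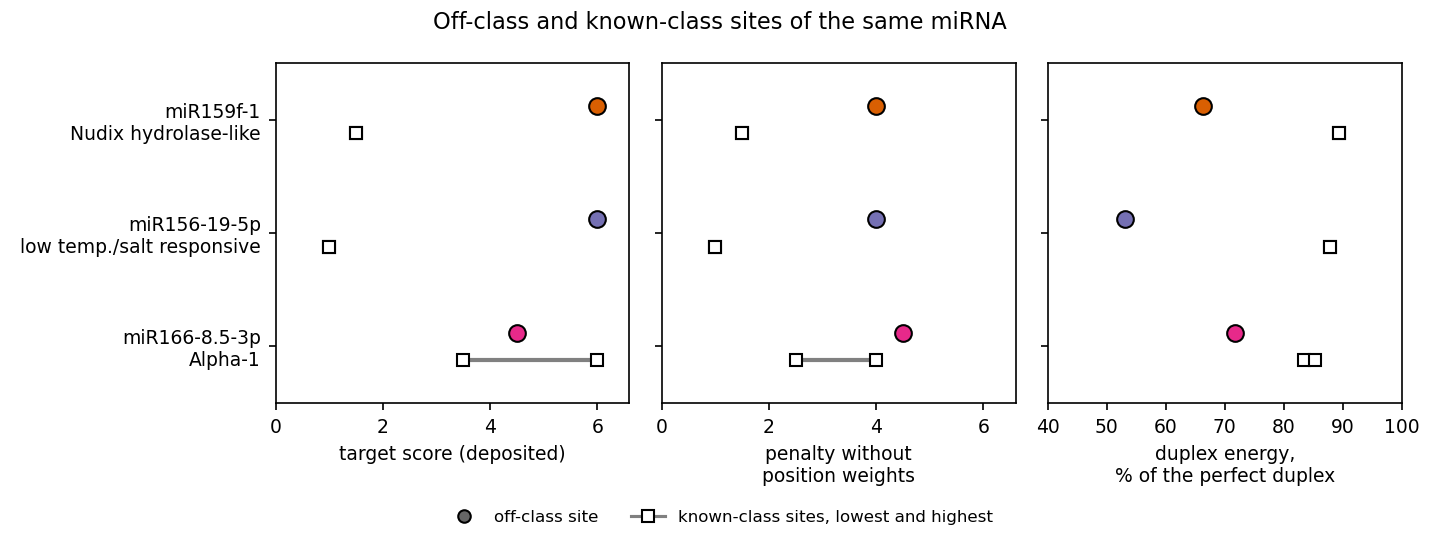
Off-class site (filled circles) above the lowest and highest known-class site (open squares) of the same miRNA, by deposited target score, by penalty without position weights, and by duplex energy as a percent of the perfect duplex. Alpha-1 lies between the homeobox leucine-zipper sites by score, above both by unweighted penalty (4.5 against 2.5 to 4) and below both by energy.

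Tags at the off-class cuts overlapped in number with those at the known-class cuts of the same miRNAs. The low temperature and salt responsive cuts had 5 and 4 tags per copy, against 10 tags of a window of 10 at the squamosa promoter-binding-like locus TraesCS6D01G145200 and 4 tags at each of the other 4 loci. Window shares were 41.7% and 40% at the low temperature and salt responsive cuts, against 50% (4 of 8 tags) at TraesCS6A01G110100, TraesCS6B01G138400 and TraesCS6D01G098500 and 100% at TraesCS6D01G145200 and TraesCS3B01G468400. These counts and shares are those listed under the miRNA of the off-class cuts. The same cuts at TraesCS6A01G110100, TraesCS6B01G138400 and TraesCS6D01G098500 had 8 tags of a window of 11 under miR156-1.1-5p and miR156-1.2-5p. With those rows, only TraesCS3B01G468400 among the 5 loci had no more tags than the low temperature and salt responsive cuts. Under the miRNA of the off-class cuts, all 5 of the squamosa promoter-binding-like loci were cut opposite base 10. Under miR156-1.1-5p and miR156-1.2-5p, TraesCS6A01G110100 also had a neighbouring cut at position 1168, with 5 tags of a window of 7. TraesCS6B01G138400 and TraesCS6D01G098500 had such a cut at position 1162, with the same counts. Neighbouring cuts were thus not confined to the low temperature and salt responsive loci. The Alpha-1 cut had 5 tags, against 4 at each of the 4 homeobox leucine-zipper loci, which were cut opposite base 11 in TraesCS5A01G043400 and TraesCS5B01G047200 and opposite base 10 in TraesCS1A01G157500 and TraesCS1B01G173900. Window shares at the homeobox leucine-zipper loci were 100% in the 5A and 5B copies and 66.7% in the 1A and 1B copies, against 50% at Alpha-1. The counts at these known-class loci lie within the counting interval of the Alpha-1 count.

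Other miRNAs of the same families were not listed at the off-class loci, although several hold the same sequence. All 5 other miR156 miRNAs in the table contain miR156-19-5p whole, and they were listed at 0 of the 3 low temperature and salt responsive loci. Of the 18 other miR166 miRNAs, 5 contain miR166-8.5-3p without its base 1, and 2 of these 5 contain it whole. None of the 5 was listed at the Alpha-1 loci. Each off-class locus was thus listed under a single miRNA, as was the MYB locus. So were loci of other families, such as TraesCS2A01G399000 and TraesCS2B01G417000 under miR398-1.2-3p. The share over all loci of the table was not counted, so single listing is not shown to be a trait of off-class loci. For miR159, miR159f-1 is the only miRNA in the table, with 4 pairs on 4 loci.

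The Nudix, low temperature and salt responsive and Alpha-1 sets each had identical tags, windows, scores and site sequences in all their copies, 3, 3 and 2 loci on different sub-genomes. A tag that matches all copies cannot be assigned to any of them, so these are not separate measurements. The MYB locus on 3A was listed without other copies. Genes of related function were few in the table. By annotation words, 1 locus was found for MYB, 0 for gibberellin or GAMYB, and 3 each for cold or salt and for Nudix, all of them members. Words for starch and glycan enzymes found 3 loci, of which 2 were the Alpha-1 members, besides glucan synthase-like 10. The low temperature and salt responsive and Alpha-1 members were themselves picked by such words.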

How the data were processed

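PARE libraries of leaves from heat-stressed and control plants were made and sequenced by the authors, who, per their methods, kept tags of 19 to 21 nt, mapped them with sPARTA to the coding sequences of IWGSC RefSeq v1.0 and predicted targets with miRferno. All measured values came from the authors' target table, and the sequence of miR159g-1 came from the study's list of miRNAs. Each row pairs a miRNA with a cut. The deposited PARE abundance was taken here as the count of tags at that cut. It can differ between rows of the same cut. Position 1167 of TraesCS6A01G110100 has 8 tags under miR156-1.1-5p and 4 under miR156-19-5p. No source states why, or how, or whether, the abundance was normalized or summed over libraries. The intervals treat it as a plain count. The deposited signal is the tags of the surrounding window (10 nt by its column name), and the deposited fraction is the part of them at the cut. The deposited target score and category are scores, and cut and site positions are coding sequence positions, 1-based. A deposited p-value describes each listed cut. The methods state filters of p under 0.05 and abundance over 4, while values at 4 are present. Weakly supported sites are thus absent from the table, which limits any comparison with it.

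Pairing was decoded from the deposited alignments, and duplex energies came from RNAduplex (ViennaRNA 2.7.2) at 37 °C. Intervals (95%) were computed in Python 3.11.15 with scipy 1.17.1 and allow for counting error alone, as tags copied by PCR are not separate molecules. Decoding and the Poisson intervals were tested on simulated data, while the Wilson and the ratio intervals were not. No test between groups was run, because 0 columns give values per library. A site was a transcript and cut position. Where several pairs shared it, the highest tag count, lowest score and lowest category were used. A site counted as cut opposite a given base when any of its pairs gave that base. All loci chosen by the rule were named. The rule for members, which reads no measured value, and the annotation lists were chosen with earlier results of these data known. Annotations are those of the deposited table, since the reference gene table held 0 of its locus IDs, and genome coordinates were not used.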

Additional observations from a re-analysis of the deposited data

How the results depend on the processing

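Of 39 values under alternative settings, 3 turned round and 6 moved by more than their limit, which was 1 SD over the off-class sets for a difference averaged over them, any change for the score gap of a single set, the counting interval for the tag ratio and 1.5 times for a count. With an unweighted penalty in place of the score, off-class minus MYB was 2.67 in place of 4, and with wobbles counted as unpaired the difference in unpaired positions was 3 in place of 2.33. Leaving out each off-class set in turn put the window share difference between −54.2 and −25 percentage points (−36.1 with all 3), which is within the SD of 31.5 but reaches 1.5 times the value without Nudix. The tag ratio of off-class to MYB was 0.667 by cut and 1.24 by window. Alpha-1 minus homeobox leucine-zipper was −0.25 by mean score, 1 against the lowest-scoring locus, −1.5 against the highest, and 1.25 by unweighted penalty, while the gaps for Nudix (2.5) and low temperature and salt responsive (3) kept their sign by unweighted penalty. Cuts opposite base 10 or 11 were found at 7 of 12 member sites and 72.8% of all sites, in place of 4 and 50%. No paired analysis was possible because the table names neither libraries nor replicate numbers. Counts of 4 to 7 tags limit all comparisons of abundance and window share.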

Other observations

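The study's miRNA list also holds miR159g-1, with the sequence below (seed in capitals), which starts 1 nt downstream of miR159f-1 and so shares 19 bases with it.
miR159g-1: tTGGATTGaagggagctctg
Over those 19 bases it has 2 mismatches at the Nudix site, opposite its bases 2 and 11, against 1 mismatch at the MYB site, opposite its base 6. It was listed with 0 pairs in the target table.

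The sites differ in where they begin within the reading frame. The Nudix and Alpha-1 sites begin at codon position 1 and the low temperature and salt responsive site at codon position 2, against codon position 3 at the MYB, squamosa promoter-binding-like and homeobox leucine-zipper sites. The share of each codon position over all binding sites was not counted, so a difference between the classes is not shown. In the frame of the coding sequence, 0 of the 167 binding sites of the table hold a stop codon, against 66 and 30 in the other frames, which bears on whether the positions follow the reading frame.

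The miR166 miRNAs differ in where a shared start of their sequence lies: at base 1 in 9 of 19, at base 2 in 6, at base 3 in 3 and at base 4 in 1. In miR166-8.5-3p, the miRNA listed with Alpha-1, it lies at base 2.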
